A study of Mus musculus with 9 samples.

Results

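Ribosomal proteins are the protein subunits of the ribosomes, and mouse cells carry a cytosolic kind and a mitochondrial kind. The genes described here were chosen by name. They comprise every gene of the deposited table whose symbol is Rpl, Rps or Rplp with a number (cytosolic ribosome; kinases of the Rps6k family excluded) or Mrpl or Mrps with a number (mitochondrial ribosome). The rule found 144 of the 14771 named genes, of which 74 were cytosolic (46 of the large and 28 of the small subunit) and 70 were mitochondrial (46 of the large and 24 of the small subunit). No measured value entered the rule. Subunits with other kinds of symbol, such as Rpsa and Dap3, fall outside it and are given with the partner genes at the end.

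Cytosolic ribosomes translate the messages copied from nuclear genes, while mitochondrial ribosomes translate the few messages of the mitochondrial genome, which encode core subunits of the respiratory chain. All ribosomal proteins of both kinds are encoded in the nucleus. The messages of most cytosolic members begin with a short pyrimidine stretch, the 5′ terminal oligopyrimidine tract, through which mTOR and Larp1 control their translation. MYC proteins are known activators of ribosome production, which is high in many growing tumours. Many cytosolic members have processed pseudogenes, copies of the spliced message scattered over the genome.

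Messenger RNA was measured in 9 mouse libraries in 3 groups of 3. The OB libraries came from olfactory bulb tumour cells and the BS libraries from brainstem tumour cells, and mice of both groups had a 129;C57BL/6 mix background, Foxr2 overexpression and p53 cko. The AG libraries came from astroglia of strain C57BL/6 with p53 DN and Nf1 shRNA. Foxr2 is a forkhead transcription factor. No group is free of a change in p53, and strain, genotype and tissue differ together between tumour cells and AG, so that they cannot be told apart. Libraries are named by their titles: OB_257, OB_287 and OB_295, then BS_287, BS_295 and BS_296, then AG_1, AG_2 and AG_3. The labels name neither the promoter that drives Foxr2 nor the animals or cultures behind each library, so that p-values reflect only library-to-library spread, which could be technical.

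Values are reads scaled by a size factor of their library, called normalized reads below, and the libraries held 11300273 to 13927771 reads in OB, 12680832 to 15282668 in BS and 14987773 to 19868282 in AG. A gene with 0 reads could still have up to 3 reads per library, equal to 2.501 to 3.32 normalized reads, which covers counting error only. Foxr2 had 4505, 6814 and 5969.8 normalized reads in the OB libraries and 12567, 7377 and 8634 in the BS libraries, against 1 read in the AG libraries together. Nf1, the target of the shRNA in AG, had 8619.7, 4184 and 4666 in the OB libraries, 6239, 5045 and 4642 in the BS libraries and 1334, 1470.4 and 1588 in the AG libraries. Trp53, the p53 gene, had 17.7, 51.4 and 31.5 in OB, 29.4, 18.1 and 35.5 in BS and 23.3, 23.7 and 34.8 in AG, which checks neither the cko allele nor the DN form. Of the astrocyte markers, Gja1 had 1.11, 662 and 395 in OB, 2879, 369 and 1231 in BS and 4961, 5105 and 5396 in AG, where it was highest. Slc1a3 had 88.4, 15575 and 23699 in OB, 11447, 22694 and 25665 in BS and 753, 855 and 854 in AG, lower in AG than in 5 of the 6 tumour libraries. Gfap, Aqp4 and Aldh1l1 had 0.834 to 5.91 normalized reads in AG. Gfap had 0, 1.90 and 3.26 in OB and 91.4, 6.40 and 45.3 in BS, where all values exceeded AG. Aldh1l1 had at most 2.96 in any tumour library, below AG, and Aqp4 at most 1.97 in any library. Each of these genes has 2 or more curated RefSeq transcripts, and genes of that kind had low values by median in this table. Their low level in AG therefore does not check the label. That limit also touches Trp53 and, among the markers at 0 reads, Rbfox3, Snap25 and Dcn, but not Olig2, Cdh5, Cldn5 or Tmem212. The summed level of the 7 fibroblast and pericyte markers in the table was 14.4 to 190.2 in OB and 16.8 to 47.3 in BS, against 88539 to 102360.5 in AG. The 6 oligodendrocyte precursor markers summed to 40344 to 72013 in OB and 33881 to 80009.8 in BS, against 17.4 to 20.01 in AG, where Olig2 had 0 reads. Dcn, of the fibroblast list, had 0 reads in both tumour groups. Sums of 8 astrocyte markers were 6749 to 34933 in OB, 17391 to 30952 in BS and 8602 to 8693 in AG, and those of 7 neuronal markers were 4607 to 9613 in OB, 4486 to 6635 in BS and 1062 to 1089 in AG, where Rbfox3 and Snap25 had 0 reads. The 3 microglia and macrophage markers summed to 68.5 to 81.8 in OB, 32.0 to 103 in BS and 59.2 to 71.0 in AG. The 4 endothelial markers summed to 11.1 to 212 in OB and 28.6 to 242 in BS, against 921 to 1035 in AG, where Cdh5 and Cldn5 had 0 reads. The 2 ependymal markers summed to 77.4 to 228 in OB and 67.1 to 209.9 in BS, against 2071 to 2551 in AG, and Tmem212 of that pair had 0 reads in the tumour groups. The part of this difference in cell makeup in the results below was not tested, and in bulk samples fewer cells of a type and less RNA per cell cannot be told apart.

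Together the cytosolic members took a larger share of all reads in the OB libraries than in AG. Their share was 2.96, 2.51 and 2.61% in OB, 2.89, 1.91 and 2.89% in BS and 1.97, 1.802 and 1.86% in AG. All OB values lay above all AG values, whereas BS_295 lay within the AG range. Means were 2.69 ± 0.234% in OB, 2.56 ± 0.569% in BS and 1.88 ± 0.0845% in AG (SD, n = 3 each). The mitochondrial members took 0.562, 0.546 and 0.515% in OB, 0.518, 0.506 and 0.589% in BS and 0.408, 0.378 and 0.391% in AG, and here both tumour groups lay above AG without overlap. How large these differences are depends on the scale. On the authors' size factors all genes together summed to 12489438 to 13254401 normalized reads in OB and 12810884 to 13527892 in BS, against 16320928 to 16566014 in AG. On that scale the cytosolic sum averaged 349211 ± 18464 normalized reads in OB, 333098 ± 65117 in BS and 307767 ± 16432 in AG (SD, n = 3 each). The log2 ratio of the cytosolic sums was then 0.18 for OB over AG and 0.11 for BS over AG, in place of 0.52 and 0.45 from the shares. For the mitochondrial sums it was 0.13 and 0.12, in place of 0.46 and 0.45.

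**Figure D1:**
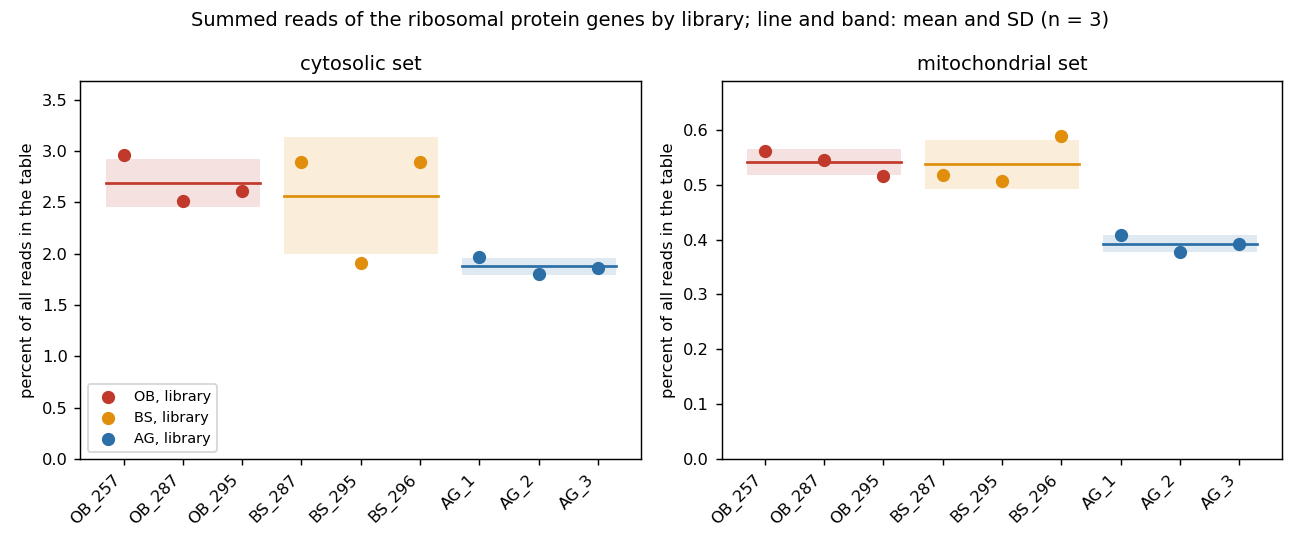
Summed reads of the cytosolic set (left) and the mitochondrial set (right) as a percent of all reads in the table (vertical axes, from 0), 1 point per library, with the group mean as a line and its SD as a band (n = 3). BS_295, at 1.91%, lies with the AG libraries in the cytosolic set, and all 6 tumour libraries lie above AG in the mitochondrial set.

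The cytosolic and mitochondrial sums kept nearly the same ratio in AG, and it varied more between tumour libraries. The cytosolic sum was 5.26, 4.61 and 5.06 times the mitochondrial sum in OB, 5.59, 3.77 and 4.92 times in BS and 4.82, 4.77 and 4.75 times in AG. The BS values lay on both sides of AG, with BS_295 the lowest of all 9. Gene by gene, the median difference of the cytosolic members from the AG mean, on the log2 scale, was 0.27, 0.15 and 0.22 in OB_257, OB_287 and OB_295, and 0.20, -0.17 and 0.33 in BS_287, BS_295 and BS_296. The mitochondrial medians were 0.27, 0.23 and 0.20 in the same OB libraries and 0.08, 0.23 and 0.36 in the same BS libraries. BS_295 was the lowest BS library for 48 of 67 cytosolic members and for 18 of 65 mitochondrial members. Values of single members lay closer together in AG than in the tumour groups. The median SD of log2 values among cytosolic members was 0.24 in OB, 0.33 in BS and 0.11 in AG, that of mitochondrial members 0.29, 0.27 and 0.10, and that of all genes tested 0.48, 0.47 and 0.12, each time in that order of groups.

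Single members were tested with limma on log2(normalized reads + 1), with Benjamini-Hochberg adjustment over the 10576 genes with 10 or more normalized reads in 3 or more libraries, and were called at an adjusted p under 0.05. Of the cytosolic members 67 of 74 passed this filter, and of the mitochondrial members 65 of 70. The members that did not pass were Rpl15, Rpl19, Rpl22, Rpl31, Rpl35a, Rps24 and Rps28 (cytosolic) and Mrpl48, Mrpl58, Mrps12, Mrps14 and Mrps23 (mitochondrial). All 12 have at least 2 curated RefSeq transcripts. The median value of the 15 cytosolic members with several curated transcripts was 8.03 normalized reads and that of the 59 with 1 was 2846; for mitochondrial members it was 21.4 (19 genes) and 1065 (51 genes). The same held over all genes, with medians of 16.1 for 2 and 258.8 for 1 curated transcript. Low values of members with several transcripts are therefore not read as low expression. The fit gives each gene a single variance for all groups. Leaving out a library can therefore change calls in any comparison, also those it is not part of.

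A smaller share of ribosomal protein genes than of all genes was called against AG. In OB against AG 34.9% of all genes tested were called (16% higher, 19% lower), against 9 of 67 cytosolic members (13.4%; 3 higher, 6 lower) and 9 of 65 mitochondrial members (13.8%; 7 higher, 2 lower). In BS against AG 35.1% of all genes were called (15.6% higher, 19.5% lower), against 8 cytosolic members (11.9%; 2 higher, 6 lower) and 12 mitochondrial members (18.5%; 9 higher, 3 lower). These counts are descriptions, since members share libraries and are not replicates. Differences of at least 2-fold were found for 3 cytosolic members in OB (4.48%) and 6 in BS (8.96%), and for 7 and 6 mitochondrial members (10.8% and 9.23%), against 41.7% and 41.3% of all genes tested. The median difference of cytosolic members was 0.23 on the log2 scale in OB against AG and 0.11 in BS against AG. That of mitochondrial members was 0.18 and 0.23, and that of all genes tested -0.011 and -0.027. All libraries of OB lay above all AG libraries for 23 cytosolic and 22 mitochondrial members (27.5% of all genes tested did so), and below them for 8 and 8 (30.8% of all genes). In BS these counts were 9 and 21 above (26.7% of all genes) and 9 and 8 below (31.8%). Both comparisons use the same AG libraries.

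The split of calls by direction depended on scaling. With upper-quartile rescaling, which moved the median of all genes to 0.12 in OB and 0.14 in BS, cytosolic calls were 11 higher and 1 lower in OB and 8 higher and 2 lower in BS. With quantile normalization they were 14 higher and 1 lower in OB and 10 higher and 2 lower in BS. TMM rescaling gave 6 higher and 5 lower in OB and 3 higher and 5 lower in BS. edgeR on recovered reads gave 5 higher and 3 lower in OB and 3 higher and 3 lower in BS, and DESeq2 7 higher and 6 lower in either. The mitochondrial split in OB was 14 higher and 2 lower under upper-quartile and quantile scaling. In BS it was 15 higher and 2 lower under upper-quartile rescaling and 12 higher and 2 lower under quantile normalization.

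**Figure D2:**
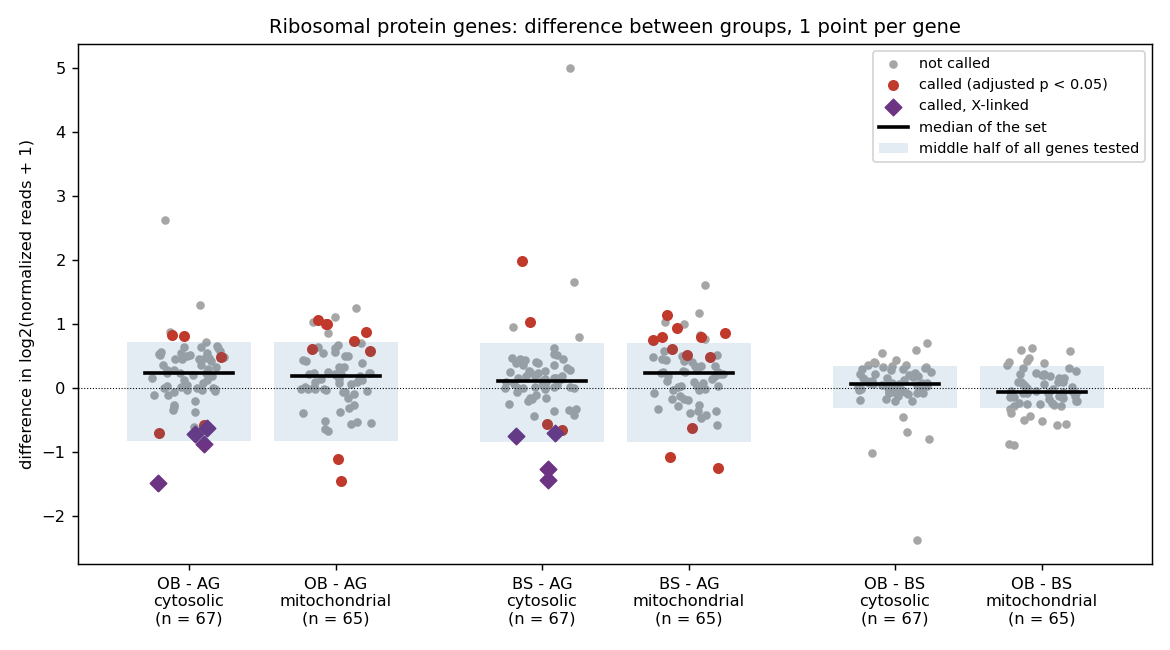
Difference between groups on the log2(normalized reads + 1) scale (vertical axis) for every tested member, 1 point per gene, in the 3 comparisons (horizontal axis), with called genes in red and called X-linked genes as purple diamonds. Black lines are set medians and pale boxes the interquartile range of all genes tested; most members lie inside the boxes, and the X-linked members lie among the lowest of the cytosolic sets in both comparisons with AG.

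Sequence around the transcription start is shown for 7 members whose messages differed between tumour cells and AG: the 4 X-linked cytosolic members, all lower in both tumour groups, then the autosomal cytosolic gene Rpl13a, and 2 mitochondrial members that moved in opposite directions, Mrps6 and Mrpl57. Each line gives 60 bases before and 30 bases from the annotated start on the gene's own strand, from RefSeq of build GRCm38.p6, a later build than that of the deposited values. The windows are chrX:74270756-74270845 (plus strand) for Rpl10, chrX:134585594-134585683 (plus) for Rpl36a, chrX:37085193-37085282 (minus) for Rpl39, chrX:102189362-102189451 (minus) for Rps4x, chr7:45128716-45128805 (minus) for Rpl13a, chr16:92058276-92058365 (plus) for Mrps6 and chr14:57826179-57826268 (plus) for Mrpl57. Capitals mark CCGGAAG, a core bound by ETS-family factors, on either strand, or CTTTC within 20 bases of the start, a stretch of the kind found in oligopyrimidine tracts.
Rpl10: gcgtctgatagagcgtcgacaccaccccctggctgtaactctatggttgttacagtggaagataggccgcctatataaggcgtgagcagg
Rpl36a: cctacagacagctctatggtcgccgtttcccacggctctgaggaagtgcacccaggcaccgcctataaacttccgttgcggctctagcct
Rpl39: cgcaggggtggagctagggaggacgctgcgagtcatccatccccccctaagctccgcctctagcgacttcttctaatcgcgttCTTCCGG
Rps4x: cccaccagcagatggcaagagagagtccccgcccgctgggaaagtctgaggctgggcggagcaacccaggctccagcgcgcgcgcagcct
Rpl13a: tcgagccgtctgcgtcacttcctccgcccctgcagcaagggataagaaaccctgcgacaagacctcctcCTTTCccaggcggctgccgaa
Mrps6: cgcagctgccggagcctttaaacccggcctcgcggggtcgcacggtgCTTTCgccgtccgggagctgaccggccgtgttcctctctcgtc
Mrpl57: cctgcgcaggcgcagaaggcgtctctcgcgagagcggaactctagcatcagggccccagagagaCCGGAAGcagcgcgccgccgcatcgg
In these printed stretches Rpl39 and Mrpl57 held the ETS-type core, and Rpl13a and Mrps6 held CTTTC. The same stretch of Rps25, Mrps5 and Mrpl36, which also differed from AG in both tumour groups, is not printed and held neither.

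A RefSeq window of 250 bases before to 50 after the start was at hand for 115 members (54 cytosolic and 61 mitochondrial), and 10 motifs were searched in it. The core CCGGAAG, on both strands, was in 17 of 54 cytosolic windows (31.5%) and 23 of 61 mitochondrial windows (37.7%), against 17.6% of the 8213 genes tested that had a window and 9.12% of all 27025 windows. On the gene strand within 20 bases of the start, CTTTC was in 15 cytosolic windows (27.8%) and 2 mitochondrial windows (3.28%), against 4.51% of windows of genes tested and 5.38% of all windows. A start of C followed by 4 pyrimidines, the strict form of the oligopyrimidine tract, was in 10 cytosolic windows (18.5%) and 0 mitochondrial windows, against 2.42% and 2.49%. Starts are as annotated in RefSeq, from the first window listed for a gene. A tract at any other start is missed, so these shares do not count all members with a tract. The YY1-type motif AAGATGGC, on both strands, was in 9.26% of cytosolic and 14.8% of mitochondrial windows (4.77% of genes tested, 2.88% of all). The E-box CACGTG, to which MYC proteins bind, was in 9.26% of cytosolic and 8.2% of mitochondrial windows (10.1% of genes tested, 7.24% of all). The NRF1-type motif GCATGCGC was in 3.7% and 9.84% (5.07% and 2.8%). TATAA within 50 bases before the start was in 7.41% of cytosolic and 0% of mitochondrial windows (2.93% and 5.33%). Other pyrimidine stretches near the start can overlap that one. The stretch CTTTT was in 11.1% of cytosolic and 3.28% of mitochondrial windows (3.19% of genes tested, 4.19% of all). For CCTTT the shares were 18.5% and 3.28% (3.75% and 4.53%), and for CTTCC 27.8% and 16.4% (11.2% and 8.97%). A match describes the letters of the window and no more.

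The cytosolic members that fell did so in both tumour groups, and 4 of the 6 are on the X chromosome in the RefSeq table. Rpl10 encodes a large-subunit protein that, in yeast, joins the subunit in its last cytoplasmic maturation steps. It had 990.3, 1051 and 1298 normalized reads in the OB libraries, 1167, 777 and 1619 in the BS libraries and 2716, 2987 and 3622 in the AG libraries. The lowest AG library lay above the highest tumour library. On the log2 scale Rpl10 fell by 1.48 (SE 0.27, limma adjusted p = 0.0034) in OB and by 1.44 (SE 0.27, limma adjusted p = 0.00401) in BS. Its calls held with each library left out in turn. Rpl39, a small protein that lines the exit tunnel of the large subunit, had 732, 789 and 1006 normalized reads in the OB libraries, 850.4, 658 and 450.3 in the BS libraries and 1568, 1323 and 1717 in the AG libraries. Again tumour and AG values did not overlap, and the log2 difference was -0.87 in OB (limma adjusted p = 0.0296) and -1.27 in BS (limma adjusted p = 0.00577).

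Rpl36a, a large-subunit protein near the site where spent tRNA leaves, had 849, 1021 and 1267 normalized reads in the OB libraries, 1074, 765 and 1250.3 in the BS libraries and 1740.1, 1546 and 1799 in the AG libraries. All tumour values lay below all AG values, with log2 differences of -0.71 in OB (limma adjusted p = 0.0407) and -0.75 in BS (limma adjusted p = 0.0345). Rps4x, a small-subunit protein, had 3809.7, 4537 and 4867 normalized reads in the OB libraries, 4676, 3103 and 4975 in the BS libraries and 7064, 6499.7 and 6757 in the AG libraries. The gap between tumour and AG libraries was again complete, and the log2 difference was -0.63 in OB (limma adjusted p = 0.0392) and -0.70 in BS (limma adjusted p = 0.0255). In 2 alternative scalings, upper-quartile rescaling and quantile normalization, Rpl36a and Rps4x were called in neither tumour group, Rpl39 was called in BS alone, and Rpl10 remained called in both. edgeR called Rpl36a in neither group and Rps4x in BS alone, Rps4x was not called in OB with TMM rescaling, and Rpl36a was not called in OB with no filter on low values. Rpl36a and Rps4x, and in OB also Rpl39, lost their calls without any 1 of the AG libraries. Without OB_257 or OB_287, Rpl36a, Rpl39 and Rps4x lost their calls in OB, and Rps4x also without OB_295. In BS Rpl36a lost its call without BS_287 or BS_295.

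X-linked genes at large were lower in the tumour cells, a split by chromosome made after the values were seen. Of 366 X-linked genes tested, 39.9% were called lower in OB against AG and 39.9% in BS against AG, and their median difference was -0.89 and -0.81 on the log2 scale. For 10206 autosomal genes the shares called lower were 18.2% and 18.7%, and the medians 0.0055 and -0.0051. By library, the X-linked median lay -1.33, -0.73 and -0.56 from the AG mean in OB_257, OB_287 and OB_295, and -0.84, -0.70 and -0.92 in BS_287, BS_295 and BS_296. Xist, the RNA that coats the inactive X chromosome of female cells, had 24665, 7.61 and 26470.0 normalized reads in the OB libraries, 17.6, 33933 and 24325 in the BS libraries and 1478, 1836 and 2079 in the AG libraries. Kdm5d, a Y-linked gene, had 0, 268 and 0 in the OB libraries, 0 in each BS library and 0.834, 0 and 0 in the AG libraries. OB_287 thus stood apart with Y-linked reads and hardly any Xist, and BS_287 had hardly any reads of either. All 4 X-linked members lay between the other libraries of their group in OB_287, and so did Rpl10, Rpl36a and Rps4x in BS_287, where Rpl39 was the highest of BS. The part of these differences in the result was not tested. Leaving out the 4 X-linked members, 5 of 63 cytosolic members were called in OB (3 higher, 2 lower; median 0.28) and 4 in BS (2 higher, 2 lower; median 0.14). These are 7.94% and 6.35%, against 34.4% and 34.5% of autosomal genes. No mitochondrial member is X-linked.

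The 2 autosomal cytosolic members that fell were Rps2 and Rpl41. Rps2, a small-subunit protein at the channel where messages enter, had 6271, 6807 and 6016 normalized reads in the OB libraries, 7437, 5173 and 6834 in the BS libraries and 10516, 9334 and 8736 in the AG libraries. Rpl41, a very short basic protein between the subunits, had 515, 637 and 712 normalized reads in the OB libraries, 722, 486 and 724 in the BS libraries and 1108, 989 and 923 in the AG libraries. For both genes every tumour library lay below every AG library. The log2 differences in OB were -0.58 for Rps2 (limma adjusted p = 0.0269) and -0.70 for Rpl41 (limma adjusted p = 0.0368). In BS they were -0.57 (limma adjusted p = 0.0293) and -0.66 (limma adjusted p = 0.0457). Neither gene was called under upper-quartile rescaling or quantile normalization, nor without any 1 AG library. edgeR did not call Rpl41 in either group or Rps2 in BS, and Rpl41 was not called in BS with TMM rescaling or with no filter. Leaving out OB_295 ended the call of Rps2 in OB and leaving out OB_257 or OB_287 that of Rpl41, and in BS leaving out BS_295 ended both, leaving out BS_296, OB_287 or OB_295 that of Rpl41.

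Among the cytosolic members that rose, Rps25 did so in both tumour groups. It encodes a small-subunit protein needed by several viral internal ribosome entry sites, and had 3278, 2569 and 2087 normalized reads in the OB libraries, 3172, 2525 and 3326 in the BS libraries and 1442, 1395 and 1570.3 in the AG libraries. Every tumour library lay above every AG library. Rps25 rose by 0.82 on the log2 scale in OB (SE 0.20, limma adjusted p = 0.0123) and by 1.02 in BS (SE 0.20, limma adjusted p = 0.00455), and the call in OB was lost without AG_1 or AG_2. Rpl13a, a large-subunit protein that in human cells also represses translation of inflammatory messages, had 16500.0, 14466 and 13440.4 normalized reads in the OB libraries, 12013, 9658 and 13759.8 in the BS libraries and 9128, 7955 and 8244 in the AG libraries. All tumour libraries lay above AG. Rpl13a rose by 0.81 on the log2 scale in OB (limma adjusted p = 0.00605), a call that held without each library, while in BS the difference was 0.47 (limma adjusted p = 0.0557). Rpl6, of the large subunit, had 4723, 4122 and 4306 normalized reads in the OB libraries, 3639, 3429.8 and 4155 in the BS libraries and 3195, 2998 and 3167 in the AG libraries. Tumour and AG values did not overlap, and Rpl6 rose by 0.49 in OB (limma adjusted p = 0.0217; lost without any 1 AG library), while the difference in BS was 0.26 (limma adjusted p = 0.168).

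Rpl29, whose loss gives small mice, rose in BS on few reads. It entered the test through tumour libraries alone, since every AG value lay below the filter's cut of 10 normalized reads. It had 13.3, 12.4 and 7.61 normalized reads in the OB libraries, 23.5, 22.4 and 10.8 in the BS libraries and 2.501, 3.94 and 5.44 in the AG libraries, and is among the members with several curated transcripts, whose low values are not read as low expression. The log2 difference in BS was 1.98 (SE 0.45, limma adjusted p = 0.00977; lost without AG_1 or AG_2) and in OB 1.29 (limma adjusted p = 0.0533). Sequence copies limit these genes. Of 72 cytosolic members matched to GENCODE M21 transcripts, 65 share a stretch of at least 75 bases at 98% identity or more with another gene (median 3 other genes), as do 29 of 70 mitochondrial members (median 0). Such a match is called a copy here, but genes that overlap at the same place were not separated from true copies. Ccdc84 is among the matches of Rps25. The 10 cytosolic genes called in either comparison all have such matches: Rpl29 shares sequence with 12 other genes, Rps2 with 11, Rpl10 with 8, Rpl41 and Rps25 with 4 each, and Rpl39, Rps4x, Rpl36a, Rpl13a and Rpl6 with 2 each. Reads of a shared stretch may be divided between genes, and the values are uncertain to that extent. Of the 6 tested cytosolic members without a copy, 0 were called in either comparison, with medians of 0.25 in OB and 0.14 in BS against AG. Of the 59 tested members with a copy, 15.3% were called in OB and 13.6% in BS, against 34.9% and 35.1% of all genes tested. A count over 6 genes is too small to set against those shares.

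**Figure D3:**
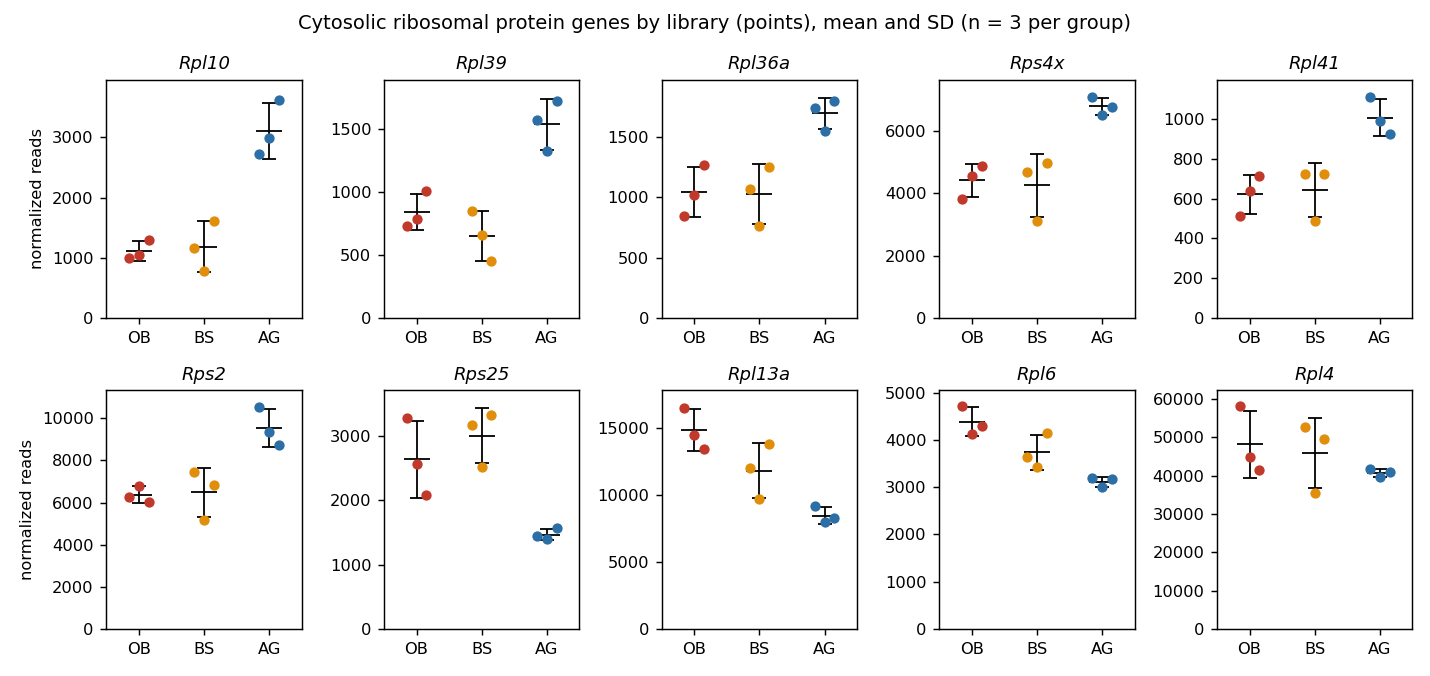
Normalized reads (vertical axes, each from 0) of 10 cytosolic ribosomal protein genes in each library (points) of OB, BS and AG, with group means and SD (n = 3). All OB and BS points of Rpl10, Rpl39, Rpl36a, Rps4x, Rpl41 and Rps2 lie below the AG points, those of Rps25, Rpl13a and Rpl6 lie above, and Rpl4, which was not called, overlaps.

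Several cytosolic members have paralogs in the table, and the X-linked ones could be set beside an autosomal relative. Rpl36al, an autosomal gene for a nearly identical protein to that of Rpl36a, had 764, 988 and 1044 normalized reads in the OB libraries, 734, 941 and 1195 in the BS libraries and 983, 880.1 and 988 in the AG libraries. Its groups overlapped, and its log2 difference was -0.039 in OB and -0.017 in BS (limma adjusted p = 0.908 and 0.962). Rps4l, a gene related to Rps4x, had 2.21, 21.9 and 2.17 normalized reads in the OB libraries, 0, 89.6 and 361 in the BS libraries and 0, 0 and 0 in the AG libraries. Rps4l was counted only on a RefSeq non-coding transcript. Its reads came mainly from BS_295 and BS_296, the widest range of any cytosolic member within a group. It was called in neither comparison (limma adjusted p = 0.315 in OB and 0.0726 in BS). Rpl7l1, a relative of Rpl7, had 4468, 4746 and 3998 normalized reads in the OB libraries, 6023, 4135 and 4369.5 in the BS libraries and 3679.5, 3458 and 3688 in the AG libraries. All tumour values lay above AG, but the log2 differences of 0.28 in OB and 0.40 in BS were not called (limma adjusted p = 0.226 and 0.0979). Rpl7 itself had 7796, 9094 and 10355 normalized reads in the OB libraries, 10740.0, 7620.1 and 10287 in the BS libraries and 9128, 8430.4 and 8932 in the AG libraries, and its groups overlapped.

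Of the other genes with known paralogs, Rpl3, which lies near the peptidyl transferase centre, had 4516, 2621 and 3564 normalized reads in the OB libraries, 4214, 2344 and 3932 in the BS libraries and 3272, 3376 and 3288 in the AG libraries. OB and BS values lay on both sides of AG. Rps27, a small-subunit zinc-finger protein, had 47.5, 30.5 and 23.9 normalized reads in the OB libraries, 38.6, 12.8 and 37.4 in the BS libraries and 25.01, 28.6 and 18.5 in the AG libraries, on few reads and with several curated transcripts. Rps27 was counted only on a RefSeq non-coding transcript. Rpl22 had 2 reads in OB and 3 in BS, against 2 in AG, and was not tested. Rpl10a had the next widest range, with 358, 123 and 111 normalized reads in the OB libraries, 443, 102 and 123 in the BS libraries and 137, 78.8 and 71.9 in the AG libraries: OB_257 and BS_287 were the high libraries of their groups. It was called in neither comparison (limma adjusted p = 0.327 in OB and 0.296 in BS).

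In the mitochondrial ribosome, small-subunit members moved in both directions. Mrps6 had the largest fall of the set in OB. It encodes a small-subunit protein with a bacterial counterpart and had 1183, 1967 and 1595 normalized reads in the OB libraries, 1762, 2416 and 1947 in the BS libraries and 4432, 4115 and 4246 in the AG libraries. All tumour libraries lay below all AG libraries. On the log2 scale Mrps6 fell by 1.46 in OB (SE 0.21, limma adjusted p = 0.00101) and by 1.07 in BS (SE 0.21, limma adjusted p = 0.0049), and both calls held without each library. Mrps6 overlaps the gene Slc5a3, a sodium and myo-inositol transporter, and shares sequence with it. Slc5a3 had 2247, 5344 and 4165 normalized reads in the OB libraries, 7717, 5186 and 3864 in the BS libraries and 5463, 6027 and 6441 in the AG libraries, with log2 differences of -0.69 in OB and -0.15 in BS that were not called (limma adjusted p = 0.152 and 0.765).

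Mrps5, the counterpart of the protein that Rps2 encodes in the cytosolic ribosome, rose in both tumour groups. It had 1726, 1332 and 1409.6 normalized reads in the OB libraries, 1025, 1356 and 1531 in the BS libraries and 707, 680.0 and 750.3 in the AG libraries. The lowest tumour library lay above the highest AG library. The rise was 1.05 on the log2 scale in OB (SE 0.19, limma adjusted p = 0.0035) and 0.85 in BS (SE 0.19, limma adjusted p = 0.00987), and the call in BS was lost without AG_2. Mrps28, of the small subunit, had 886, 981 and 668 normalized reads in the OB libraries, 564, 703 and 765 in the BS libraries and 574, 439.6 and 497 in the AG libraries. It rose by 0.74 in OB (limma adjusted p = 0.0298), whereas BS_287 lay within the AG range and the difference in BS was 0.42 (limma adjusted p = 0.165). Mrps27, a small-subunit protein of the pentatricopeptide repeat family, had 1018, 2332 and 1340.0 normalized reads in the OB libraries, 1796, 1883 and 1530.1 in the BS libraries and 954, 899.8 and 864 in the AG libraries. All tumour values exceeded AG, with a rise of 0.93 in BS (limma adjusted p = 0.0322) and a difference of 0.70 in OB (limma adjusted p = 0.0848), where OB_287 was far above the other 2. The call of Mrps28 was lost without any 1 AG library, OB_257 or OB_287, and that of Mrps27 without any 1 AG or BS library.

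Of the large-subunit members, Mrpl57 and Mrpl36 rose in both tumour groups. Mrpl57, a short protein with no bacterial counterpart, had 519, 573 and 456 normalized reads in the OB libraries, 465, 606 and 637 in the BS libraries and 303, 241 and 232 in the AG libraries. Mrpl36, a short protein that has one, had 1205, 880.3 and 1266 normalized reads in the OB libraries, 841, 1129 and 928 in the BS libraries and 631, 527 and 498 in the AG libraries. Neither gene showed overlap between tumour and AG libraries. Mrpl57 rose by 1.00 in OB (SE 0.21, limma adjusted p = 0.00735) and 1.13 in BS (SE 0.21, limma adjusted p = 0.00409) on the log2 scale. For Mrpl36 the rise was 1.01 in OB (limma adjusted p = 0.00646) and 0.80 in BS (limma adjusted p = 0.018). These calls held without each library, apart from Mrpl36 in BS, which was lost without AG_2, AG_3 or BS_295. No other gene shares a stretch of sequence with Mrpl57 or Mrpl36 at the limits given above. Other called mitochondrial members besides Mrps6 do share one. Mrps5, Mrps27, Mrpl9, Mrpl12 and Mrpl14 share it with 1 other gene each, and Mrpl51 and Mrps7 with 2 each, and their values are uncertain to that extent.

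Other large-subunit members rose in 1 comparison. Mrpl9 had 2866, 3463 and 2048 normalized reads in the OB libraries, 1457, 1976 and 2028 in the BS libraries and 1588, 1437 and 1464 in the AG libraries, and rose by 0.87 in OB (limma adjusted p = 0.0165). The OB values exceeded all others, while in BS the difference was 0.27 (limma adjusted p = 0.384). Mrpl1, of the stalk beside the tRNA exit, had 615, 534 and 605 normalized reads in the OB libraries, 469.7, 547 and 399 in the BS libraries and 389, 377 and 384 in the AG libraries, and rose by 0.60 in OB (limma adjusted p = 0.0339; 0.29 in BS, limma adjusted p = 0.26), with all tumour values above AG. Mrpl52 had 474, 521 and 396 normalized reads in the OB libraries, 562, 691 and 823 in the BS libraries and 513, 348 and 341 in the AG libraries. It rose by 0.80 in BS (limma adjusted p = 0.0336), while OB overlapped AG (0.23, limma adjusted p = 0.5). Mrpl38 had 3110.1, 2767 and 2189.9 normalized reads in the OB libraries, 3658, 2267 and 3766 in the BS libraries and 1988, 1857 and 1792 in the AG libraries, with a rise of 0.75 in BS (limma adjusted p = 0.0335) and a difference of 0.50 in OB (limma adjusted p = 0.119). Smaller rises passed the test: Mrpl11, of the stalk base, in both tumour groups (OB 0.58 and BS 0.48; limma adjusted p = 0.0244 and 0.0488), and in BS Mrpl12, the stalk protein (0.51, limma adjusted p = 0.0497), and Mrps7, of the small-subunit head (0.60, limma adjusted p = 0.0497). Mrpl9, Mrpl1, Mrpl38, Mrpl11, Mrpl12 and Mrps7 lost these calls without any 1 AG library, and Mrpl52 without AG_2 or AG_3. Leaving out a tumour library also ended calls: OB_257 or OB_295 for Mrpl1, OB_287 for Mrpl11 in OB, BS_295 or BS_296 for Mrpl52 and Mrps7, and BS_287 or BS_296 for Mrpl38, Mrpl11 and Mrpl12 in BS. Leaving out OB_295 ended the call of Mrpl12 and leaving out OB_287 that of Mrps7, both in BS. With no filter on low values, Mrpl11, Mrpl12 and Mrps7 were not called in BS, nor were Mrpl12 and Mrps7 with a robust trend; Mrpl12 was also lost in a fit of BS and AG only, and Mrps7 with a pseudocount of 0.5.

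Falls among large-subunit members were fewer. Mrpl51 had 302, 359.7 and 592 normalized reads in the OB libraries, 427, 633 and 701 in the BS libraries and 909, 803 and 876 in the AG libraries. Every tumour library lay below AG, and Mrpl51 fell by 1.10 on the log2 scale in OB (limma adjusted p = 0.019), with a difference of -0.58 in BS (limma adjusted p = 0.155). Mrpl54 had 894, 818 and 1061 normalized reads in the OB libraries, 363, 829 and 783 in the BS libraries and 1628, 1386 and 1387 in the AG libraries, with BS_287 the lowest. It fell by 1.24 in BS (limma adjusted p = 0.0149), and the difference in OB was -0.67 (limma adjusted p = 0.126). Mrpl14, to which the assembly factor Malsu1 binds, had 869.8, 716 and 747 normalized reads in the OB libraries, 681, 653 and 913 in the BS libraries and 1264, 1118 and 1043 in the AG libraries. It fell by 0.62 in BS (limma adjusted p = 0.034), a call that upper-quartile, TMM and quantile scaling and edgeR did not make. The calls of Mrpl51, Mrpl54 and Mrpl14 were lost without any 1 AG library, and that of Mrpl14 also without BS_287 or BS_295.

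**Figure D4:**
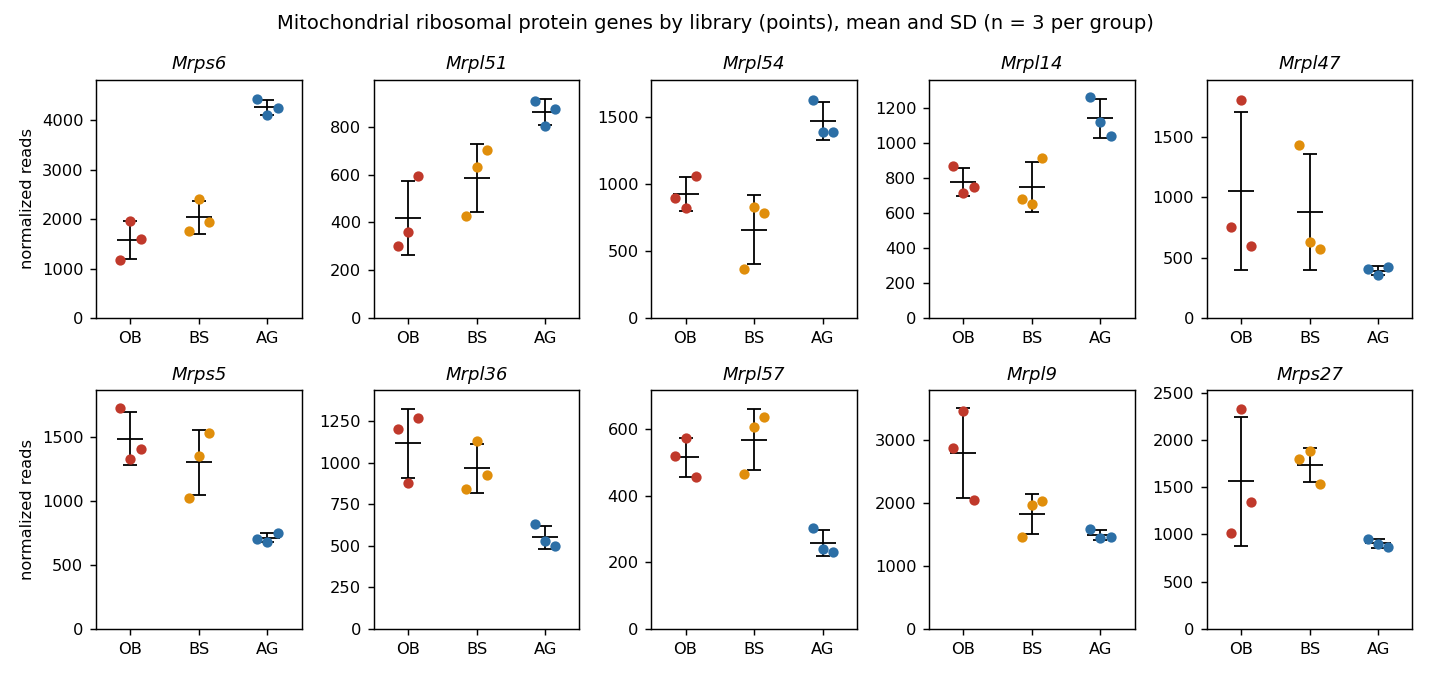
Normalized reads (vertical axes, each from 0) of 10 mitochondrial ribosomal protein genes in each library (points) of OB, BS and AG, with group means and SD (n = 3). Mrps6, Mrpl51, Mrpl54 and Mrpl14 lie lower in the tumour libraries, Mrps5, Mrpl36, Mrpl57 and Mrps27 lie higher, and single libraries such as OB_287 for Mrpl47 stand far from their group.

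Some mitochondrial members varied widely within a tumour group. Mrpl47 had 755, 1806 and 601 normalized reads in the OB libraries, 1429, 634 and 569 in the BS libraries and 409, 354 and 420.3 in the AG libraries. OB_287 and BS_287 were the high libraries, all tumour values exceeded AG, and the log2 differences of 1.25 in OB and 1.03 in BS were not called (limma adjusted p = 0.0673 and 0.12). Mrps26 had 1104, 557 and 762 normalized reads in the OB libraries, 271, 607 and 780.3 in the BS libraries and 798, 596 and 607 in the AG libraries. BS_287 was the low library, tumour and AG values overlapped, and the differences were not called (limma adjusted p = 0.695 in OB and 0.496 in BS).

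Between the tumour groups, 0 of 67 cytosolic and 0 of 65 mitochondrial members were called in OB against BS by limma, edgeR or DESeq2, and 0% of all genes tested were called by limma. At an unadjusted p under 0.05, limma counted 0 cytosolic and 4 mitochondrial members, against 1019 of all genes tested. The smallest adjusted p was 0.549 among cytosolic and 0.441 among mitochondrial members. All OB libraries lay above all BS libraries for 4 cytosolic members, Rps12, Rps13, Rps15 and Rps23 (5.36% of all genes tested did so), and below them for 0 (4.63% of all genes). Among mitochondrial members 3 lay above (Mrpl9, Mrpl13 and Mrpl20) and 4 below (Mrpl2, Mrpl3, Mrpl16 and Mrpl52). Median log2 differences were 0.069 for cytosolic and -0.063 for mitochondrial members, against 0.0081 for all genes. Without BS_295 the cytosolic median was -0.12, so that its sign rests on that library. A p above the threshold does not show that the tumour groups were alike.

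Genes that work with ribosomes were counted by list, and each list's share called is given against the 34.9% (OB) and 35.1% (BS) of all genes tested. These lists, like the members, were drawn up with results of these data known. Of 13 mitochondrial aminoacyl-tRNA synthetases, 3 rose in OB and 4 in BS, and 0 fell. That is 23.1% and 30.8% called, all higher, against 34.9% and 35.1% of all genes (16% and 15.6% higher). With 13 genes these shares are too coarse to be read as fewer or more than of all genes. Of these synthetases Ears2 and Sars2 rose in both tumour groups and Aars2 rose in BS. Sars2 had 902, 976 and 798 normalized reads in the OB libraries, 634, 835 and 881 in the BS libraries and 469, 441 and 392.02 in the AG libraries, a rise of 1.04 in OB and 0.84 in BS (limma adjusted p = 0.00359 and 0.00993). The calls of Ears2 and Aars2 were lost without any 1 AG library, that of Ears2 in OB also without OB_287 or OB_295, and that of Sars2 in BS without AG_3. Of 20 assembly and rRNA modification factors, 5 rose and 1 fell in each comparison. That is 30% called (25% higher), against 34.9% and 35.1% of all genes (16% and 15.6% higher). Without any 1 AG library 2 rose and 1 fell in each. Mettl17, an assembly factor of the small subunit, had 556, 775 and 375 normalized reads in the OB libraries, 845, 468 and 721 in the BS libraries and 174, 194 and 173 in the AG libraries, with no overlap. It rose by 1.59 in OB and 1.86 in BS (limma adjusted p = 0.00534 and 0.00247). Nsun4, an rRNA methyltransferase, had 533, 381 and 471 normalized reads in the OB libraries, 366, 413 and 438 in the BS libraries and 832, 837 and 862 in the AG libraries, and fell by 0.88 in OB and 1.06 in BS (limma adjusted p = 0.00691 and 0.00294).

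Of 12 mitochondrial translation factors, 3 rose in OB (Gfm2, Pdf and Taco1) and 3 in BS (Mtrf1, Pdf and Taco1), and 0 fell, so that 25% were called, against 34.9% and 35.1% of all genes. Taco1 in OB was lost in 9 alternatives, Gfm2 without AG_1 or AG_3, Mtrf1 without AG_1 or AG_2, and Taco1 in BS without AG_2. Pdf, which removes the formyl group from new mitochondrial proteins, had 1064, 1022 and 1117 normalized reads in the OB libraries, 1282, 1018 and 925 in the BS libraries and 575, 599 and 589 in the AG libraries. Tumour and AG values did not overlap, and the rise was 0.86 in OB and 0.86 in BS (limma adjusted p = 0.0048 and 0.005). Among 4 mitochondrial subunits with other symbols, Dap3, a small-subunit GTP-binding protein, rose in both tumour groups, with 282, 244 and 212 normalized reads in the OB libraries, 241, 198 and 219 in the BS libraries and 129, 117 and 119.8 in the AG libraries (0.99 in OB and 0.84 in BS on the log2 scale; limma adjusted p = 0.00882 and 0.0192). Aurkaip1, of the same list, fell by 0.77 in BS (limma adjusted p = 0.0458), a call that upper-quartile, TMM and quantile scaling and edgeR did not make. Of these 4 genes, 25% were called in OB and 50% in BS, against 34.9% and 35.1% of all genes. Without any 1 AG library, the calls of Dap3 and Aurkaip1 in BS were lost. On the cytosolic side, 0 of 3 tested subunits of the like list were called in either comparison, Rack1 and Rpsa among them. Rack1 was called higher in both with quantile normalization, and in BS without BS_295. Of elongation and termination factors, 0 of 8 were called in either, against 34.9% and 35.1% of all genes. Rps3a1, a small-subunit gene whose symbol falls outside the naming rule, had 2439, 2241 and 1882 normalized reads in the OB libraries, 2098, 1276 and 1749.8 in the BS libraries and 1236, 1108 and 1329 in the AG libraries. It rose by 0.83 in OB (limma adjusted p = 0.0154), with a difference of 0.45 in BS (limma adjusted p = 0.126).

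Of 35 cytosolic initiation factors, 2 rose and 5 fell in OB, and 1 rose and 4 fell in BS. That is 20% and 14.3% called, against 34.9% and 35.1% of all genes. The split depended on scaling: upper-quartile rescaling gave 4 higher and 3 lower in OB and 2 higher and 1 lower in BS, and quantile normalization 5 higher and 2 lower in OB and 3 higher and 1 lower in BS. edgeR gave 4 higher and 3 lower in OB and 1 higher and 2 lower in BS, and DESeq2 4 higher and 5 lower in OB. Eif5b, a GTPase of subunit joining, had 2755, 2772 and 4086 normalized reads in the OB libraries, 2442, 4165 and 2842 in the BS libraries and 7482, 7825 and 7742 in the AG libraries. All tumour values lay far below AG, and Eif5b fell by 1.29 in OB and 1.32 in BS (limma adjusted p = 0.00326 and 0.00291). Eif1ax, an X-linked factor of start codon selection, had 3816, 5986 and 6121 normalized reads in the OB libraries, 5836, 6815 and 3229.6 in the BS libraries and 9928, 9295 and 10207 in the AG libraries, and fell by 0.92 and 0.96 in OB and BS (limma adjusted p = 0.0411 and 0.0349), calls that upper-quartile and quantile scaling, edgeR and fits without any 1 AG library did not make. Eif4h, a helper of the helicase Eif4a, had 107, 114 and 109.8 normalized reads in the OB libraries, 77.2, 101 and 68.0 in the BS libraries and 34.2, 31.5 and 35.9 in the AG libraries, and rose by 1.68 in OB and 1.24 in BS (limma adjusted p = 0.00208 and 0.00953). Of 44 genes of ribosome biogenesis and RNA polymerase I, 2 rose and 2 fell in OB, and 4 rose and 1 fell in BS. That is 9.09% and 11.4% called, against 34.9% and 35.1% of all genes, and quantile normalization gave 4 higher and 1 lower in OB. Nle1, a large-subunit assembly factor, rose by 1.00 in OB and 1.15 in BS (limma adjusted p = 0.00793 and 0.00412), with means of 980.1 ± 59.6 normalized reads in OB and 1111 ± 275 in BS, against 491 ± 52.9 in AG (SD, n = 3 each). Las1l, an X-linked gene for pre-rRNA cleavage, fell by 1.199 in OB and 1.00 in BS (limma adjusted p = 0.00588 and 0.014; in BS lost without any 1 AG library).

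Of 16 regulators of ribosomal protein messages, 3 rose in OB (Mycn, Rps6kb2 and Esrra), and in BS 2 rose (Mycn and Rps6kb2) and 1 fell (Mdm2). That is 18.8% called in each, against 34.9% and 35.1% of all genes. Myc, Nrf1, Ppargc1a, Tfb2m and Mdm4 of this list were not found in the deposited values and were not tested. The calls of Esrra and Mdm2 were lost without any 1 AG library, and that of Mdm2 also with upper-quartile rescaling. Mycn, a MYC protein, had 15.5, 103 and 34.8 normalized reads in the OB libraries, 449, 17.1 and 163 in the BS libraries and 0.834, 1.97 and 0 in the AG libraries. Every tumour library lay above AG, where 2 of the 3 libraries had any read, and levels within the tumour groups differed widely. All AG values lay below the filter's cut of 10 normalized reads, so that Mycn entered the test through tumour libraries alone. limma called the gene higher in OB (adjusted p = 0.0172) and BS (adjusted p = 0.00481), and the call in OB was lost with a pseudocount of 5 and without AG_1, AG_3 or OB_287. BS_295, the BS library with the lowest share of cytosolic ribosomal protein reads, was also the one with the fewest Mycn reads in BS, while OB_257, with the highest share in OB, had the fewest Mycn reads in OB. A link between Mycn and that share was not tested. Between OB and BS, 0 genes of any of these lists were called by limma.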

How the data were processed

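Per the labels' protocols, RNA was harvested from the cells and a stranded TruSeq kit was used. Tools named in the submitters' processing notes are HISAT2 2.1.0, bcl2fastq 1.8.4, Subread 1.6.2 with featureCounts, and DESeq2 1.20.0, with build mm9. The annotation, and how reads shared between transcripts were handled, are not stated in the labels. The deposited signal values are read numbers per RefSeq transcript divided by a size factor per library: 100.0% became whole within 0.05 reads once the factor was undone. Of 16260 rows, 16202 were named from a RefSeq table and 41 from GENCODE; the other 17 stayed unnamed and were not tested. Rows of a symbol were summed (4 members had 2 rows: Mrpl1, Mrpl21, Mrpl4 and Rpl30). For Rps4l, Rps19, Rps27, Mrps16, Mrpl48 and Mrpl58 the only row is a RefSeq transcript of the non-coding class. Their values do not measure a message for the protein.

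The main test was limma 3.58.1 (R 4.3.3), 1 mean per group over all 9 libraries, a variance trend, two-sided, pseudocount 1, on genes with at least 10 normalized reads in 3 or more libraries. Fold changes on this scale understate changes of low genes. Alternatives were other pseudocounts, filters, scalings and fits, recovered reads in edgeR 4.0.16 and in DESeq2 1.42.0, and each library left out. The methods were tested on simulated reads. Members named with all values were those called (up to 6 per direction, set and comparison), paralogs, and the 2 per set with the widest range within a tumour group; partner genes were named if called, up to 3 per list. Mrpl11, Mrpl12, Mrps7, Rps3a1, Xist and Kdm5d lie outside that rule and were chosen after their values were seen. The members and lists were chosen with earlier results of these data known. Some genes of these lists are not reported here. Copies were searched with blastn against GENCODE M21 transcripts, promoters come from RefSeq GRCm38.p6, and figures were drawn with matplotlib 3.10.9.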

Additional observations from a re-analysis of the deposited data

How the results depend on the processing

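The counts of cytosolic members called were 9 in OB and 8 in BS against AG, and became 15 in OB with quantile normalization and 13 in BS with DESeq2. Mitochondrial calls in OB were 9, and became 16 with upper-quartile rescaling, 16 with quantile normalization, 15 in a fit of the compared groups only and 17 with DESeq2. The cytosolic median in OB (0.23) became 0.37 with upper-quartile rescaling and 0.44 with quantile normalization, and in BS (0.11) 0.38 with quantile normalization. The mitochondrial median in OB (0.18) became 0.31 with upper-quartile rescaling, 0.23 with TMM, 0.32 with quantile normalization and 0.23 with edgeR, and in BS (0.23) it became 0.40 with upper-quartile rescaling and 0.38 with quantile normalization. In OB against BS the mitochondrial median (-0.063) became -0.098 with upper-quartile rescaling. As shares of all reads the summed log2 ratios were 0.52 (OB) and 0.45 (BS) for cytosolic and 0.46 and 0.45 for mitochondrial members, in place of 0.18, 0.11, 0.13 and 0.12. The cause of these moves was not tested.

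With each library left out in turn, cytosolic calls ran from 2 to 13 in OB and 3 to 11 in BS, and mitochondrial calls from 4 to 15 in OB and 2 to 13 in BS. Without AG_1, AG_2 or AG_3 there were 2, 2 and 4 cytosolic and 5, 4 and 4 mitochondrial calls in OB, and 3, 3 and 4 cytosolic and 6, 2 and 3 mitochondrial calls in BS; such fits have fewer samples. Without OB_257 there were 5 cytosolic calls in OB, without BS_287 15 mitochondrial calls in OB, and without BS_296 7 mitochondrial calls in BS. BS_287 is not in the comparison of OB with AG and enters it through the shared variance and the set of genes tested. That variance pools unequal groups, with a median SD over all genes of 0.12 in AG, 0.48 in OB and 0.47 in BS. Its part in the calls lost without an AG library was not tested. Medians ran from 0.19 to 0.27 (cytosolic) and 0.15 to 0.22 (mitochondrial) in OB, from 0.026 to 0.19 and 0.12 to 0.27 in BS, and from -0.12 to 0.16 and -0.090 to 0.029 in OB against BS. Among alternatives for the named members, OB against BS included, 1866 kept the main result, called or not called. A call was lost in 126 and gained in 38, and 0 changed sign as called values. The 1866 include members that were not called and stayed so, and thus do not measure how firmly calls held.

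The titles OB_287 and BS_287 share a number, as do OB_295 and BS_295, and no label explains it. With the number as a replicate block, the medians in OB against BS were 0.16 (cytosolic) and 0.042 (mitochondrial), and 0 members were called. Deviations from group means correlated at 0.069 (OB_287 with BS_287) and 0.30 (OB_295 with BS_295), while pairs with different numbers reached 0.29 (OB_295 with BS_296) and 0.22 (OB_257 with BS_287), and with 2 shared numbers the pairing is not established. Kdm5d had reads in OB_287 and 0 reads in BS_287. Without single libraries other than AG, calls among initiation factors became 11 in OB without BS_287 and 3 in BS without BS_296, those of biogenesis genes 3 in BS without BS_296, and those of regulators 1 in BS without BS_296 and 5 in BS without OB_257. Without AG_1, AG_2 or AG_3, initiation factors had 2, 2 and 3 calls in OB and 2 in each case in BS, biogenesis genes 1 in each case in BS, and regulators 1 in each case in OB. Few reads limit some members, among them Rpl29, Rps27 and Rpl22, which all have several curated transcripts. The parts of depth and of read counting in these low values were not tested.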
